A study of Homo sapiens with 6 samples.

Results

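The WNT system of human embryonic stem cells and of cultures taken from them toward neurons was described through 65 protein-coding genes. The deposited table held 61853 entries. The genes were taken by symbol: all WNT ligands, frizzled receptors, DKK and SFRP antagonists, R-spondins and their LGR receptors, together with 21 genes listed by name, among them the co-receptors LRP5 and LRP6, CTNNB1 and the TCF/LEF transcription factors. The rule uses symbols and no measured value, but it was written with earlier results of these data known. The 65 members fell into 7 roles: 19 WNT ligands, 2 secretion factors, 12 receptors and co-receptors, 9 genes of the R-spondin module, 10 secreted antagonists, 9 parts of the cytoplasmic relay and 4 TCF/LEF factors. By GENCODE release 29, 19855 entries of the table were protein-coding.

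WNT proteins are lipid-modified ligands that bind a frizzled receptor together with LRP5 or LRP6 on the surface of a cell. Without ligand, a cytoplasmic complex of AXIN, APC and GSK3 marks beta-catenin for destruction. With ligand, Dishevelled proteins bring that complex to the membrane, and beta-catenin builds up and acts with TCF/LEF factors on target genes. In the early embryo this signal patterns the body axis, and in the forebrain high WNT activity favours posterior and dorsal fates, and anterior fates, the hypothalamus among them, need WNT antagonists.

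RNA was sequenced from H9, an established line of human embryonic stem cells for which the labels name no genetic change, on day 0 and on day 30 of a culture protocol toward neurons of the arcuate nucleus of the hypothalamus, with 3 libraries a day. Day 0 libraries were labelled only as H9. For the day 30 libraries, per the labels' protocols, the cells received sonic hedgehog, its agonist purmorphamine and the inhibitors of TGF-beta and BMP receptors SB431542 and LDN-193189 through day 8, then B-27 and the gamma-secretase inhibitor DAPT, a ROCK inhibitor at replating on day 12, and from day 17 B-27 and BDNF. No WNT protein and no WNT inhibitor is named in those protocols. The labels do not say that the replicates came from separate cultures, and the p-values therefore reflect only how far these samples spread, which may be technical.

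The libraries held 5013643 to 12924842 counts. The day 30 libraries carried the markers of their label: all 8 neuron markers rose, all 8 pluripotency markers fell, and the arcuate peptide gene POMC stood at 1523 ± 358 CPM (SD, n = 3). Of the neuron markers, ELAVL4 entered the test through its day 30 libraries alone and had to rise. POU5F1, NANOG and ZFP42 entered through day 0 alone and had to fall. Of 15 listed markers of hypothalamus and arcuate nucleus, 11 were tested and 10 of these were higher, but 10 of the 11 entered the test through their day 30 libraries alone and had to be higher there. CPM are counts scaled by library size, with library sizes adjusted by the TMM method. The arcuate markers NPY, AGRP, RAX and KISS1 had only 19, 6, 1 and 6 reads over the 3 day 30 libraries. Markers of neural progenitors fell but stayed present, with a sum of 1771 CPM on day 0 and 1050 CPM on day 30. On day 30 VIM stood at 640 CPM, NES at 337 CPM and SOX2 at 61.3 CPM. Astroglia markers summed to 919 and 341 CPM, with SLC1A2 at 231 CPM and GJA1 at 108 CPM on day 30. The day 30 values are thus those of mixed cultures. Markers of roof plate and cortical hem summed to 26.1 CPM on day 0 and to 37.8 CPM on day 30. Most of this was BMP7, at 20.6 and 28.1 CPM. LMX1A, LMX1B, MSX1, MSX2 and ZIC1 had means under 1 CPM on both days. The 6 HOX genes taken as markers of hindbrain and spinal cord summed to 0.0484 and 0.440 CPM. Markers of mesenchyme and meninges set the day 30 libraries apart. The 8 markers summed to 173, 638 and 4407 CPM in day 30 replicates 1, 2 and 3, against 231, 345 and 316 CPM on day 0. None of the 8 was at 0 in replicates 2 and 3. Most of the sum in replicate 3 was COL1A1, COL1A2 and COL3A1, at 1717, 1732 and 853 CPM. DCN, a marker of fibroblast-like cells, stood at 0.514, 0.378 and 19.1 CPM in day 30 replicates 1, 2 and 3. PDGFRA stood at 0.412, 0.755 and 12.1 CPM there, against 6.25, 12.5 and 9.60 CPM on day 0. FOXC1 was under 1 CPM in every library.

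As a description of the members' sequences, the 250 bases before the transcription start were searched for CTTTGAT and CTTTGAA on either strand. These are forms of the core site of TCF/LEF factors, and other forms of it were not searched. The RefSeq promoter table (GRCh38.p14) matched 47 of the 65 members, which had 59 promoters. Of these 59, 1 held either form, here called the motif (1.69%), against 5.94% of all 35116 promoters in the table. It belongs to DKK1, a secreted antagonist that is itself a known target of WNT signalling. That promoter is shown with the one of TCF7L1, the TCF/LEF factor with the largest fall, which has no match. The DKK1 sequence is chr10:52314031-52314280 on the plus strand, and that of TCF7L1 is chr2:85133142-85133391 on the plus strand. Both run 5′ to 3′ up to the base before the start, and capitals mark the motif, whose first base lies 95 bases before the start of DKK1.
DKK1: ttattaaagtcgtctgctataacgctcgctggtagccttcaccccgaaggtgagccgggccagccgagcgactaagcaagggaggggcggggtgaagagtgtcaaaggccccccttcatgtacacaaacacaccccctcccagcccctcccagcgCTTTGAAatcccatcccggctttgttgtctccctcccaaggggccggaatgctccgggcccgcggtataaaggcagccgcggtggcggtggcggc
TCF7L1: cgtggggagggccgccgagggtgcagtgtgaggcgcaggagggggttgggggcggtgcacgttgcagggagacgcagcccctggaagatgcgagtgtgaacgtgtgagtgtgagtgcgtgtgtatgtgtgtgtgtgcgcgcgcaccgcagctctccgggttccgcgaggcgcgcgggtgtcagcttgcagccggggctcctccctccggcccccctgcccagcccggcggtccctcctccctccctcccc
The GC content of these stretches was 62.8% and 72%, with 18 and 24 CG dinucleotides. A match is a description of letters, and the absence of these letters from a window of 250 bases says nothing on whether a factor binds.

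Of the 65 members, 43 had enough reads to be tested and 34 of these (79.1%) passed edgeR's quasi-likelihood test, with a Benjamini-Hochberg adjusted p under 0.05 over all genes. Of all 18040 genes tested, 76.6 percent passed. On day 30, 15 members (34.9%) were higher, against 39.8 percent of all tested genes, and 19 (44.2%) were lower, against 36.8 percent. Of the protein-coding genes tested, the type of all members, 38.2 percent were higher and 40.3 percent lower. The CPM ranges of the days did not overlap for 35 members (81.4%), against 79.5 percent of all tested genes. These shares stood near those of all genes, so the number of changed members is no result about WNT genes. The splits within single roles, given below, rest on few genes and were not tested against these shares. The median log2 fold change of the 43 was −0.38, against 0.08 over all tested genes and −0.04 over protein-coding ones. By 2-fold or more, 14 of the 43 rose and 11 fell, against 29.7 percent and 24.7 percent of all tested genes, again near the shares of the members. Testing required at least 1.21 CPM in 3 libraries, which corresponds to 10 counts at the median library size, with CPM here on total counts before TMM scaling. WNT4, RSPO2, DKK2 and LEF1 passed this filter through their day 30 libraries alone, so they had to be higher on that day, and SFRP5 passed it through day 0 alone. WNT5B, WNT7A, WNT10B and FRZB were over the filter in 3 day 30 libraries but only 1 day 0 library. They too were tested only because of their day 30 level. TCF7L1 was over the filter in 3 day 0 libraries but only 2 day 30 libraries, so it was tested because of its day 0 level. RSPO4 was over it in 2 day 0 and 3 day 30 libraries. Of the 30 members over the filter in all 6 libraries, 26 passed the test, against 9845 of the 13284 genes (74.1 percent) over it in all 6. Here the share of the members was the larger one, and the difference was not tested. The 22 members that were not tested held at most 62 counts in a library, and WNT2, RSPO1 and DKK4 had no reads at all. The members together held 2521 ± 75.1 CPM on day 0 and 2482 ± 70.8 CPM on day 30 (SD over 3 libraries).

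**Figure D1:**
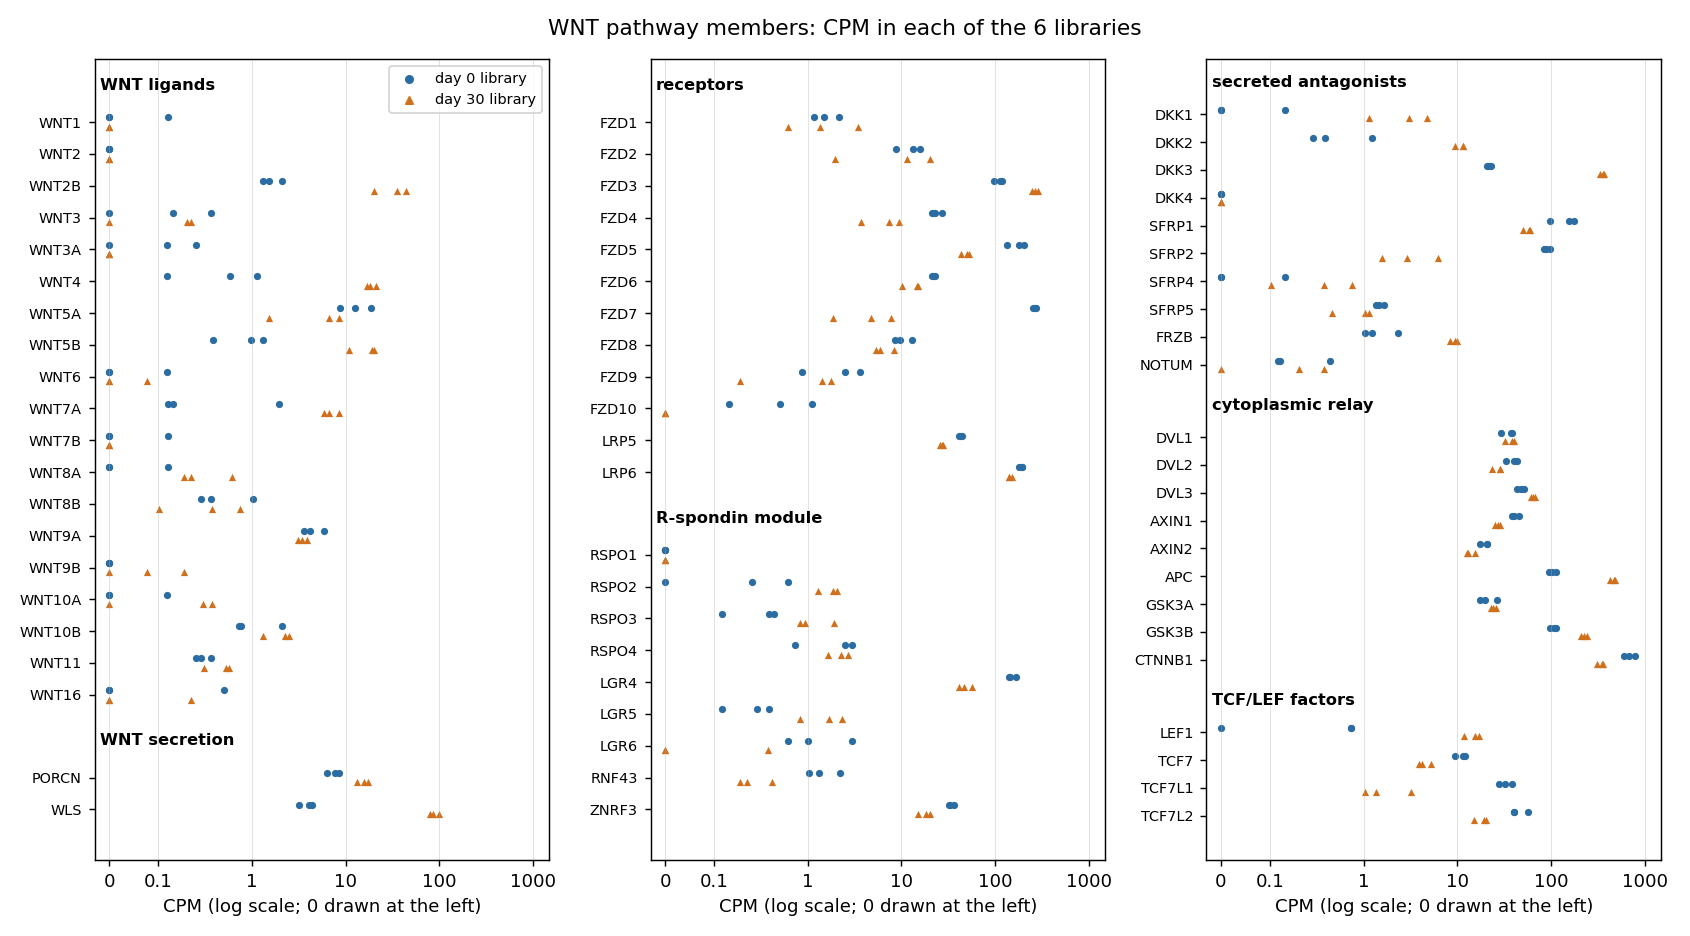
CPM of each of the 65 members in each of the 6 libraries, grouped by role, on a log axis on which 0 is drawn at the left; circles are the 3 day 0 libraries and triangles the 3 day 30 libraries. CPM are not scaled by gene length, so a row should be read from left to right and not against other rows; FZD7, SFRP2 and TCF7L1 lie far to the left on day 30, and WLS, DKK3, WNT2B and LEF1 far to the right.

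Among the ligands, WNT2B, WNT4, WNT5B and WNT7A rose and WNT5A fell. WNT4 and WNT5B are mostly known for signalling that does not pass through beta-catenin, whereas WNT2B and WNT7A can act through it. WNT4 (chromosome 1, 22117305 to 22143969, hg38) stood at 1.15, 0.581 and 0.123 CPM in the day 0 libraries and at 21.0, 17.1 and 18.3 CPM in the day 30 libraries. Every day 30 library lay far above every day 0 library, and the log2 fold change was 4.91 ± 0.38 (SE, edgeR adjusted p = 6.46e-07). Without day 0 replicate 1 it was 5.72. WNT2B (chromosome 1, 112466541 to 112530165) was at 1.53, 1.31 and 2.09 CPM on day 0 and at 20.3, 44.1 and 35.3 CPM on day 30. The ranges were well apart although the day 30 libraries differed by over 2-fold, and the log2 fold change was 4.31 ± 0.34 (edgeR adjusted p = 7.55e-07). ST7L, a gene on the opposite strand that overlaps WNT2B, went from 395 to 749 counts while WNT2B went from 38 to 968. The sources used here do not give the strand setting of the counting, so how reads were divided in such pairs is uncertain.

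WNT5B was at 0.382, 1.31 and 0.984 CPM on day 0 and 10.8, 19.3 and 20.0 CPM on day 30, without overlap, a log2 fold change of 4.22 ± 0.39 (edgeR adjusted p = 2.70e-06). Its neighbour on the opposite strand, FBXL14, held 138 and 339 counts. WNT7A was at 0.127, 0.145 and 1.97 CPM on day 0 and at 8.54, 6.65 and 5.85 CPM on day 30. Day 0 replicate 3 stood above the other two day 0 libraries, and the log2 fold change of 3.16 ± 0.60 (edgeR adjusted p = 0.000637) became 5.54 without it. Neither WNT5B nor WNT7A is covered by the rule for named genes, and both were chosen after their values were seen.

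WNT5A (chromosome 3, 55465715 to 55490539), the ligand best known for planar polarity and cell movement, was the tested ligand that fell. Its CPM was 8.67, 18.7 and 12.6 on day 0 and 1.54, 6.65 and 8.49 on day 30. The lowest day 0 library was only just above the highest day 30 library, which was replicate 3, the one with the most mesenchyme marker reads. The log2 fold change was −1.30 ± 0.47 (edgeR adjusted p = 0.0259), and without day 0 replicate 2 it was −1.0 and did not pass (adjusted p = 0.109). WNT9A stood at 3.57, 4.21 and 5.91 CPM on day 0 and 3.09, 3.93 and 3.40 CPM on day 30. Its ranges overlapped, and its log2 value of −0.39 ± 0.28 did not pass (edgeR adjusted p = 0.229). WNT10B did not pass either (0.78 ± 0.45, edgeR adjusted p = 0.136), though without day 0 replicate 3 it was 1.46 (adjusted p = 0.0176).

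The remaining 12 ligands were not tested. WNT1, WNT3, WNT3A and WNT8A, ligands known for signalling through beta-catenin, held 1, 4, 3 and 1 counts in all on day 0 and 0, 5, 0 and 10 on day 30. WNT8B had 13 and 10 counts, WNT11 7 and 13, WNT16 4 and 3, WNT10A 1 and 6, WNT6 1 and 1, WNT7B 1 and 0, WNT9B 0 and 2, and WNT2 none. In the edgeR fit with no filter on low counts, the lowest adjusted p of the 11 with reads was 0.11, for WNT8A. Its ratio of day 30 to day 0 scaled counts was 8.08 with a 95% exact counting interval of 1.15 to 350. Intervals and floors of this kind cover counting error only.

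Levels of different genes were compared per length, as counts per kilobase of exon scaled to the same total in every library, given as TPM. The summed level of the 19 ligands was 7.83 ± 1.29 TPM on day 0 and 28.4 ± 6.13 TPM on day 30 (SD, n = 3). On day 0 WNT5A made up 38.4% ± 13.1 and WNT9A 24.4% ± 2.76 of that sum. On day 30 WNT4 made up 27.7% ± 6.83, WNT5B 24.9% ± 5.05 and WNT2B 16.9% ± 4.33. WNT4 and WNT5B did not differ beyond their spread, and with the length of the longest transcript in place of all exons they stood at 24.6% and 34.8%.

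**Figure D2:**
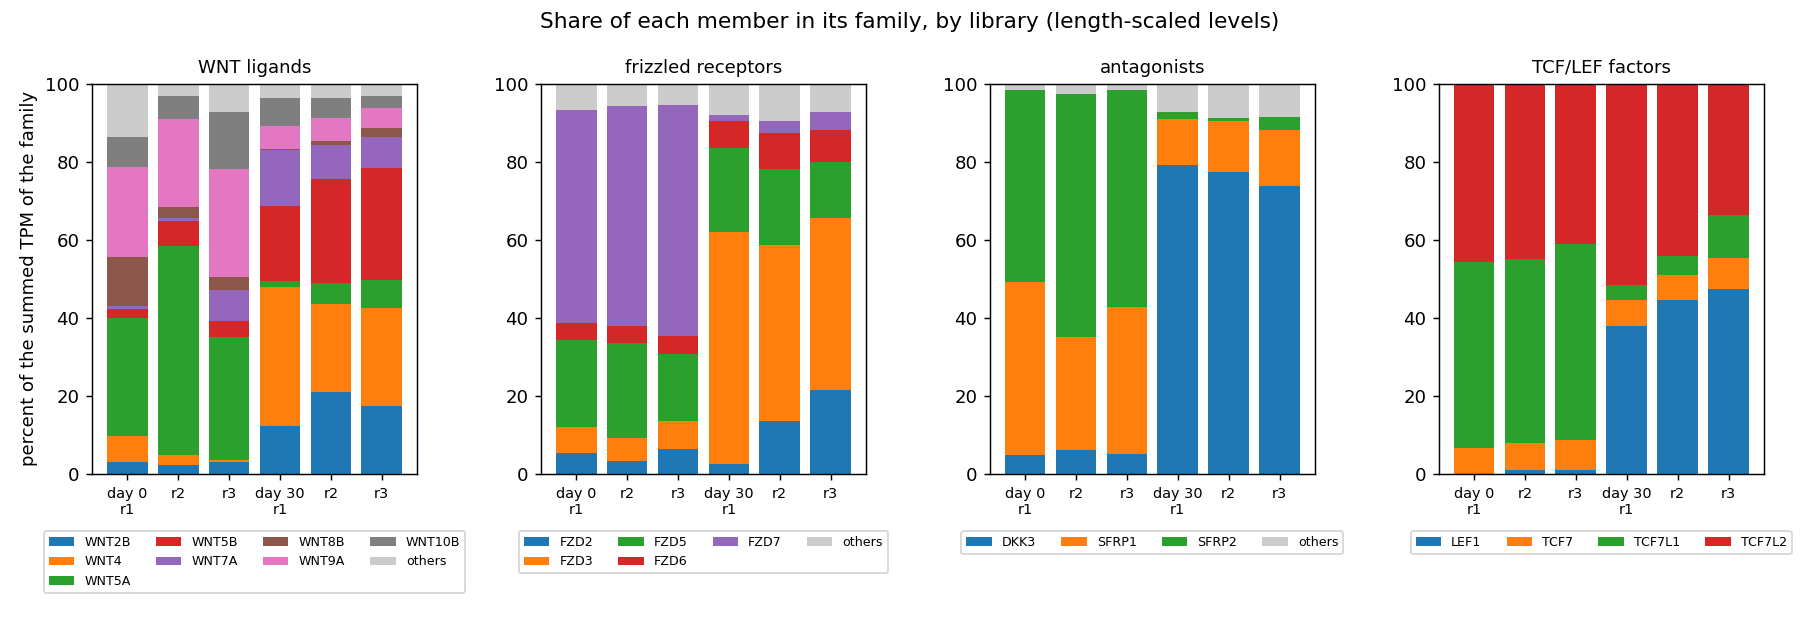
Share of each member in the summed TPM of its family, in percent, as stacked bars from 0 to 100 for each of the 6 libraries, in panels for WNT ligands, frizzled receptors, antagonists and TCF/LEF factors; members with small shares are pooled as others. FZD7, SFRP2, WNT5A and TCF7L1 have the largest share of their family in all 3 day 0 libraries, although TCF7L2 leads in day 0 replicates 1 and 2 with the longest transcript as length; FZD3 and DKK3 have it in all 3 day 30 libraries, where WNT4 or WNT5B leads the ligands and LEF1 or TCF7L2 the TCF/LEF factors.

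Both genes for making a secreted WNT rose. WLS (chromosome 1, 68098473 to 68233120), the carrier that takes lipid-modified WNT proteins to the cell surface, stood at 3.19, 4.36 and 4.06 CPM on day 0 and at 79.6, 99.1 and 85.7 CPM on day 30. The days were far apart and the libraries within a day close together, with a log2 fold change of 4.51 ± 0.17 (edgeR adjusted p = 3.08e-09). PORCN (chromosome X, 48508962 to 48520814), the enzyme that attaches the lipid, was at 8.54, 7.70 and 6.28 CPM on day 0 and 15.7, 13.1 and 17.2 CPM on day 30. Its ranges did not overlap, and its log2 fold change was 1.02 ± 0.19 (edgeR adjusted p = 0.000641). Per length, PORCN was above WLS on day 0 (4.19 ± 0.669 and 1.45 ± 0.190 TPM) and below it on day 30 (9.41 ± 1.90 and 36.4 ± 6.34 TPM).

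Of the 11 tested receptors, FZD3 rose, 7 fell and FZD1, FZD2 and FZD9 did not pass. Among all tested genes 36.8 percent were lower and 39.8 percent higher. FZD7 (chromosome 2, 202034587 to 202038445), the frizzled receptor known for its high level in human pluripotent cells, stood at 251, 267 and 270 CPM on day 0 and at 1.85, 4.68 and 7.74 CPM on day 30. Each day 0 library was far above each day 30 library, and the log2 fold change of −5.89 ± 0.32 (edgeR adjusted p = 4.05e-08) was the largest fall of all tested members. FZD4 (chromosome 11, 86945679 to 86955391), which also serves as the receptor of the non-WNT ligand norrin, was at 21.3, 26.7 and 22.9 CPM on day 0 and 3.70, 7.4 and 9.44 CPM on day 30. Its ranges did not overlap and its log2 fold change was −1.83 ± 0.27 (edgeR adjusted p = 0.000104). PRSS23, which overlaps FZD4 on the opposite strand, went from 900 to 4241 counts.

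FZD3, a receptor known for the guidance of growing axons and planar polarity, was the exception. It stood at 113, 98.1 and 119 CPM on day 0 and at 284, 250 and 267 CPM on day 30, without overlap, for a log2 fold change of 1.28 ± 0.12 (edgeR adjusted p = 2.14e-06). FZD5, chosen after its values were seen, went from 177, 201 and 134 CPM to 49.5, 52.5 and 42.7 CPM. It lay lower in every day 30 library, with a log2 fold change of −1.82 ± 0.16. FZD6 and FZD8 had smaller falls of −0.73 ± 0.17 and −0.65 ± 0.25, and that of FZD8 (edgeR adjusted p = 0.0328) did not pass under 4 of the alternatives, with adjusted p up to 0.109. FZD9 did not pass (−0.86 ± 0.58, edgeR adjusted p = 0.199). FZD10 held 14 counts on day 0 and 0 on day 30, which makes it at least 5.78-fold lower against a floor of 3 counts over the group.

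FZD1 stood at 2.17, 1.16 and 1.48 CPM on day 0 and at 0.617, 1.36 and 3.40 CPM on day 30. The day 30 range enclosed the day 0 range, and the log2 value of −0.02 ± 0.53 did not pass (edgeR adjusted p = 0.971). It was 0.08 with total counts in place of TMM scaling, and −0.63 without day 30 replicate 3. FZD2 also had a day 30 range that enclosed the day 0 range, with 13.3, 8.72 and 15.9 CPM on day 0 and 1.96, 11.6 and 20.0 CPM on day 30 (−0.25 ± 0.56, edgeR adjusted p = 0.694, and −0.84 without day 30 replicate 3).

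The co-receptors changed less than FZD7. LRP6 (chromosome 12, 12116025 to 12267012) was at 192, 181 and 192 CPM on day 0 and at 140, 142 and 152 CPM on day 30. The ranges were narrow and did not overlap, and the log2 fold change was −0.38 ± 0.10 (edgeR adjusted p = 0.00508). LRP5 (chromosome 11, 68312609 to 68449275) went from 44.7, 43.0 and 41.5 CPM to 27.2, 26.1 and 27.7 CPM, lower in every day 30 library, with a log2 fold change of −0.68 ± 0.11 (edgeR adjusted p = 0.000280). Whether these falls differ from that of FZD7 was not tested.

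Per length, the 10 frizzled genes summed to 201 ± 4.56 TPM on day 0 and 73.5 ± 16.3 TPM on day 30. On day 0 FZD7 made up 56.7% ± 2.40 and FZD5 21.2% ± 3.82 of this sum. On day 30 FZD3 made up 49.5% ± 8.60, FZD5 18.4% ± 3.54, FZD2 12.6% ± 9.48 and FZD7 2.99% ± 1.59. FZD5 and FZD2 did not differ beyond their spread on day 30. Bulk libraries cannot tell fewer cells of a type from less RNA per cell, and this holds for every member.

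**Figure D3:**
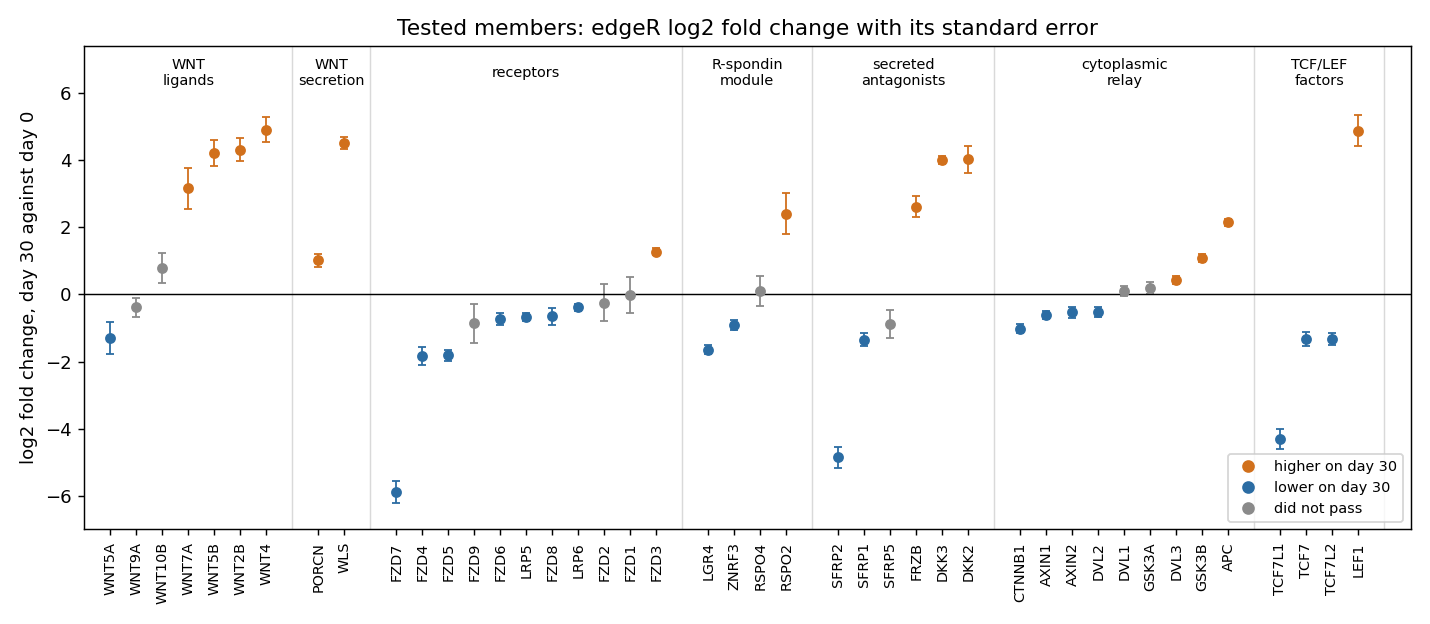
The log2 fold change of day 30 against day 0 for each of the 43 tested members, with bars of 1 approximate standard error, grouped by role and sorted within each role; colour gives members that were higher, lower or did not pass. The receptors lie mainly below 0 with FZD3 above it, and ligands, antagonists and TCF/LEF factors each hold members far above and far below 0.

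The R-spondin module sets how many frizzled receptors a cell shows. ZNRF3 and RNF43 are ubiquitin ligases that remove frizzled receptors from the surface, and R-spondins bound to LGR receptors take these ligases away. Of 4 tested genes of the module, LGR4 and ZNRF3 fell, RSPO2 rose and RSPO4 did not pass. Over all tested genes, 36.8 percent were lower and 39.8 percent higher. LGR4 (chromosome 11, 27365961 to 27472775) stood at 168, 139 and 144 CPM on day 0 and 41.2, 46.5 and 56.8 CPM on day 30, far apart, with a log2 fold change of −1.65 ± 0.14 (edgeR adjusted p = 1.33e-06). ZNRF3 (chromosome 22, 28883592 to 29057487) stood at 32.6, 36.3 and 32.1 CPM on day 0 and at 20.1, 18.1 and 14.9 CPM on day 30, lower in all 3, with a log2 fold change of −0.91 ± 0.14 (edgeR adjusted p = 0.000166). Per length, LGR4 made up 78.8% of the module on day 0 and 62.4% on day 30.

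The R-spondins themselves were low on both days. RSPO2 was at 0.255, 0 and 0.615 CPM on day 0 and at 1.85, 1.28 and 2.08 CPM on day 30, from 7 and 46 counts. It rose (log2 fold change 2.40 ± 0.62, edgeR adjusted p = 0.00444), and the value was 3.48 without day 0 replicate 3. RSPO4 was at 2.93, 2.47 and 0.738 CPM on day 0 and at 2.68, 1.66 and 2.26 CPM on day 30, with overlap, and its log2 value of 0.09 ± 0.45 did not pass (edgeR adjusted p = 0.858). RSPO3 held 7 and 30 counts, LGR5 6 and 48, LGR6 35 and 2 and RNF43 35 and 8 in all on day 0 and day 30. These 4 were not tested. In the fit with no filter on low counts RSPO3 and LGR5 were higher, LGR6 and RNF43 lower, with adjusted p of 0.0209, 0.000165, 1.93e-06 and 0.000598. For LGR6 the ratio of day 0 to day 30 scaled counts was 21.7 (95% exact counting interval 5.57 to 186). RNF43 overlaps TSPOAP1-AS1 on the opposite strand, which held 10 and 341 counts. On its own strand it overlaps SUPT4H1, with 468 and 315 counts, and ENSG00000285897, with 486 and 323 counts.

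Of 6 tested antagonists, DKK2, DKK3 and FRZB rose, SFRP1 and SFRP2 fell and SFRP5 did not pass. The shares over all tested genes were 39.8 percent higher and 36.8 percent lower. SFRP proteins resemble the ligand-binding part of a frizzled receptor and bind WNT proteins themselves, whereas DKK1 and DKK2 block the co-receptor LRP6. DKK3 is a relative whose part in WNT signalling is less settled. SFRP2 (chromosome 4, 153780592 to 153789120) stood at 83.4, 88.9 and 98.3 CPM on day 0 and at 2.88, 1.59 and 6.23 CPM on day 30. No day 30 library came near the day 0 level, and the log2 fold change was −4.86 ± 0.32 (edgeR adjusted p = 1.77e-07). SFRP1 was at 176, 96.8 and 155 CPM on day 0 and at 50.1, 58.5 and 59.8 CPM on day 30. The ranges did not overlap although day 0 replicate 2 was lower than the others, and the log2 fold change was −1.35 ± 0.20 (edgeR adjusted p = 8.81e-05).

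DKK3 (chromosome 11, 11963106 to 12009769) stood at 20.9, 21.5 and 22.8 CPM on day 0 and at 353, 367 and 330 CPM on day 30. The libraries within each day were close together, and the log2 fold change was 4.01 ± 0.12 (edgeR adjusted p = 1.15e-09). DKK2 (chromosome 4, 106921802 to 107283806) went from 0.382, 0.291 and 1.23 CPM to 9.47, 11.6 and 11.5 CPM, without overlap, a log2 fold change of 4.02 ± 0.39 (edgeR adjusted p = 4.01e-06) that was 4.92 without day 0 replicate 3. FRZB, a further SFRP-like gene that the naming rule does not cover, rose from 1.02, 2.32 and 1.23 CPM to 9.88, 9.44 and 8.30 CPM (2.61 ± 0.31), against the direction of SFRP1 and SFRP2.

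DKK1 (chromosome 10, 52314296 to 52318042), whose promoter is printed above, held 1 count in all on day 0 and 89 on day 30. Its CPM was 0, 0.145 and 0 on day 0 and 1.13, 4.68 and 3.02 on day 30, all 3 above day 0. It was not tested because day 30 replicate 1 lay below the 1.21 CPM of the filter. The ratio of day 30 to day 0 scaled counts was 71.9 (95% exact counting interval 12.6 to 2870), and the fit with no filter on low counts gave an adjusted p of 3.21e-13. PRKG1-AS1, which overlaps DKK1 on the opposite strand, held 0 and 18 counts. SFRP5 stood at 1.66, 1.45 and 1.35 CPM on day 0 and at 1.03, 0.453 and 1.13 CPM on day 30. Its ranges did not overlap, but its log2 value of −0.88 ± 0.42 did not pass (edgeR adjusted p = 0.0817). SFRP4 had 1 and 10 counts, the WNT deacylase NOTUM 5 and 7, and DKK4 none.

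Per length, the 10 antagonists summed to 135 ± 19.5 TPM on day 0 and 166 ± 18.8 TPM on day 30. SFRP2 made up 55.7% ± 6.59 and SFRP1 36.9% ± 7.66 of the sum on day 0, and DKK3 made up 76.7% ± 2.68 and SFRP1 13.1% ± 1.14 on day 30. The share of SFRP2 on day 30 was 1.97% ± 1.35.

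In the cytoplasm, beta-catenin mRNA fell while APC and GSK3B of the complex that marks it for destruction rose. CTNNB1 (chromosome 3, 41194741 to 41260096), which encodes beta-catenin, a protein that also joins cadherins to the cytoskeleton, stood at 605, 677 and 782 CPM on day 0 and at 348, 362 and 310 CPM on day 30. The ranges did not overlap, and the log2 fold change was −1.02 ± 0.13 (edgeR adjusted p = 2.70e-05). APC (chromosome 5, 112707498 to 112846239), the scaffold of the complex and a protein that also binds microtubules, was at 95.9, 112 and 101 CPM on day 0 and 475, 466 and 426 CPM on day 30. Each day 30 library stood over 3-fold above each day 0 library, with a log2 fold change of 2.14 ± 0.11 (edgeR adjusted p = 3.33e-08). Another entry on the same strand, ENSG00000258864, overlaps APC and held 546 and 587 counts against 2349 and 13041 for APC. GSK3B (chromosome 3, 119821323 to 120094417), a kinase that phosphorylates beta-catenin among many other proteins, went from 112, 96.5 and 107 CPM to 222, 240 and 208 CPM, without overlap, a log2 fold change of 1.09 ± 0.11 (edgeR adjusted p = 5.78e-06).

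Both AXIN genes fell. AXIN2 (chromosome 17, 65528563 to 65561647), a widely used target gene of beta-catenin as well as a scaffold, stood at 20.7, 17.3 and 20.7 CPM on day 0 and at 12.8, 12.8 and 15.3 CPM on day 30. The ranges were near each other but did not overlap, and the log2 fold change was −0.53 ± 0.15 (edgeR adjusted p = 0.00885), passing in all alternatives run with adjusted p up to 0.0486. An entry on the same strand that overlaps it, ENSG00000266076, held 133 and 126 counts against 449 and 375 for AXIN2. AXIN1 (chromosome 16, 287440 to 352673) was at 45.5, 37.8 and 40.6 CPM on day 0 and 27.2, 28.2 and 25.3 CPM on day 30, without overlap, a log2 fold change of −0.62 ± 0.13 (edgeR adjusted p = 0.00102).

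The 3 Dishevelled genes, whose proteins pass the signal from the receptor to the AXIN complex, did not move together. DVL1 was at 37.9, 37.2 and 29 CPM on day 0 and at 40.3, 38.4 and 31.9 CPM on day 30, with overlap (0.10 ± 0.15, edgeR adjusted p = 0.566). DVL2 fell by 0.52 on the log2 scale. DVL3 rose by 0.43 ± 0.12, and its adjusted p of 0.00619 became 0.0508 without day 0 replicate 2. Summed per length, the 3 stood at 39.9 ± 3.51 TPM on day 0 and 45.4 ± 3.19 TPM on day 30. GSK3A did not pass (0.19 ± 0.17, edgeR adjusted p = 0.318), and GSK3B made up 71.7% ± 2.92 of the GSK3 sum on day 0 and 82.3% ± 1.00 on day 30.

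Per length, CTNNB1 was the highest of the 9 relay genes on day 0 at 96.9 ± 13.2 TPM, above GSK3B at 21.7 ± 2.45 TPM and APC at 13.9 ± 0.601 TPM. On day 30 APC stood at 67.2 ± 4.05 TPM, CTNNB1 at 52.3 ± 4.24 TPM and GSK3B at 50.3 ± 5.04 TPM. CTNNB1 and GSK3B did not differ beyond their spread on day 30. The order of APC and CTNNB1 on day 30 depended on the length used: with the longest transcript, APC made up 22.7% and CTNNB1 37.0% of the relay.

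All 4 TCF/LEF factors, the DNA-binding partners of beta-catenin, passed the test, as did 76.6 percent of all tested genes. On day 30 LEF1 was higher and the other 3 were lower, against 39.8 and 36.8 percent of all tested genes. LEF1 had to be higher, since it passed the filter through its day 30 libraries alone. LEF1 mostly activates targets together with beta-catenin, whereas TCF7L1 mostly represses them and is known for restraining the pluripotency network of stem cells. TCF7L1 (chromosome 2, 85133410 to 85310388) stood at 38.2, 27.9 and 32.2 CPM on day 0 and at 1.03, 1.36 and 3.21 CPM on day 30. The ranges were far apart, and the log2 fold change was −4.31 ± 0.30 (edgeR adjusted p = 2.76e-07). LEF1 (chromosome 4, 108047545 to 108168956) stood at 0, 0.727 and 0.738 CPM on day 0 and at 11.8, 15.3 and 16.8 CPM on day 30, every library far above day 0. Its log2 fold change was 4.88 ± 0.46 (edgeR adjusted p = 3.33e-06), and 4.25 without day 0 replicate 1, which held no read of it.

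TCF7L2 (chromosome 10, 112950250 to 113167678), a factor with many splice forms, went from 56.0, 40.5 and 40.4 CPM to 20.3, 19.1 and 14.9 CPM. All day 30 libraries were lower, with a log2 fold change of −1.32 ± 0.17 (edgeR adjusted p = 4.10e-05). TCF7 (chromosome 5, 134114711 to 134151865) went from 12.1, 9.44 and 11.6 CPM to 3.91, 4.23 and 5.28 CPM, a log2 fold change of −1.33 ± 0.22 (edgeR adjusted p = 0.000227). SKP1 overlaps TCF7 on the opposite strand and held 2894 and 3146 counts against 254 and 122 for TCF7. Per length, the 4 factors summed to 25.9 ± 4.99 TPM on day 0 and 11.6 ± 1.94 TPM on day 30. TCF7L1 made up 48.3% ± 1.58 of the sum on day 0 and 6.6% ± 3.84 on day 30. LEF1 made up 0.652% ± 0.565 and 43.3% ± 4.96, while TCF7L2 stood at 43.9% ± 2.46 and 43.1% ± 9.05. TCF7L1 and TCF7L2 on day 0 changed order with the longest transcript as length, at 44.9% and 47.2% in replicate 1, 44.4% and 46.3% in replicate 2, and 47.2% and 42.4% in replicate 3. LEF1 and TCF7L2 on day 30 did not differ beyond their spread.

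The day 30 libraries disagreed for some members. Of the 43 tested members, 10 had day 30 CPM values over 2-fold apart between libraries, namely FZD2, FZD9, FZD1, WNT5A, FZD7, SFRP2, TCF7L1, FZD4, SFRP5 and WNT2B. Of these 10, 8 were highest in replicate 3, the library with the highest sum of mesenchyme markers, and 7 were lowest in replicate 1, the library with the lowest. Over all 43 tested members, 18 were highest in replicate 3. Of the 1856 tested genes with reads in all 3 day 30 libraries and a range over 2-fold there, 58.8% were highest in replicate 3 and 55.1% lowest in replicate 1. FZD9 was lowest in replicate 3, at 1.75, 1.44 and 0.189 CPM in replicates 1, 2 and 3, from 17, 19 and 1 counts. FZD1 (6, 18 and 18 counts), TCF7L1 (10, 18 and 17) and SFRP5 (10, 6 and 6) also rested on few reads. Replicate 3 had the lowest total of all libraries, 5013643 counts, so counting error weighs on such ranges. The part of mesenchyme-like cells in these values was not tested. Without day 30 replicate 3, FZD7 was at a log2 fold change of −6.24, TCF7L1 at −4.72, SFRP2 at −5.35 and FZD4 at −2.03. Each of these genes fell and was highest in replicate 3 among the day 30 libraries. Their falls therefore had to grow without that library, and this says nothing on mesenchyme-like cells.

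**Figure D4:**
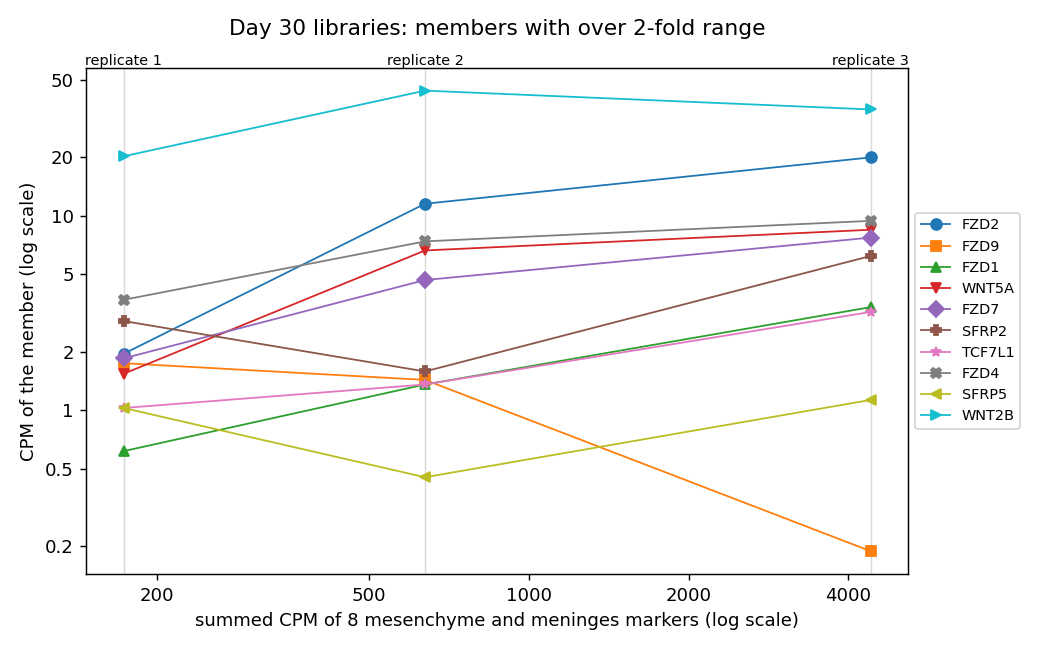
CPM of the 10 members whose day 30 libraries differ by over 2-fold (log axis) against the summed CPM of 8 mesenchyme and meninges markers in the same library (log axis), with lines joining the 3 day 30 libraries of a gene. Replicate 3, at 4407 CPM of the markers, holds the highest value of 8 of the 10 members, and FZD9 has its lowest value there, from 1 count.

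Beyond the members, 96 further genes of the pathway were followed in 6 lists. Of 77 tested, 29 (37.7%) were higher and 33 (42.9%) lower on day 30, and 15 did not pass, with a median log2 fold change of −0.05. These shares were again near those of all tested genes, 39.8 and 36.8 percent. The splits within single lists rest on few genes and were not tested against these shares. In each list the gene with the largest rise and the one with the largest fall are named.

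Of 14 tested extracellular modulators, 10 fell and 2 rose, against 36.8 percent lower and 39.8 percent higher of all tested genes. Their median was −1.64, against 0.08 over all genes. CER1, a secreted antagonist of the early embryo, went from 12.2, 36.9 and 39.4 CPM to 0.206, 0.302 and 0 CPM (log2 fold change −7.03 ± 0.64, and −7.62 without day 30 replicate 2). Day 0 replicate 1 stood below the other day 0 libraries. CER1 lay under the filter in every day 30 library, so it entered the test through day 0 alone and had to be lower on day 30. APCDD1, a membrane inhibitor of WNT signalling, rose from 1.64 ± 0.465 to 10.8 ± 3.22 CPM (2.68 ± 0.33). GPC4, a proteoglycan that binds WNT proteins at the surface and was chosen after its values were seen, fell from 719 ± 53.2 to 21.0 ± 9.29 CPM (−5.08 ± 0.28).

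Of 15 tested genes of planar cell polarity and of receptors outside the frizzled family, 8 fell and 5 rose (median −0.73). Among all tested genes 36.8 percent were lower and 39.8 percent higher. ROR1, a receptor tyrosine kinase for WNT5A, stood at 127, 147 and 158 CPM on day 0 and at 4.84, 11.3 and 13.6 CPM on day 30, without overlap, with a log2 fold change of −3.90 ± 0.28 (edgeR adjusted p = 3.46e-07). PRICKLE2, a polarity protein also found at synapses, rose from 25.8 ± 4.76 to 156 ± 6.90 CPM (2.59 ± 0.14). The CELSR cadherins, named after their values were seen, split: CELSR2 and CELSR3, which act in axon tracts, rose by 2.32 ± 0.17 and 1.73 ± 0.15, and CELSR1, best known in epithelia and progenitors, fell by 0.73 on the log2 scale. VANGL2 went from 91.9 ± 4.85 to 106 ± 2.93 CPM and did not pass (0.20 ± 0.10, edgeR adjusted p = 0.0942), although it passed with total counts in place of TMM (0.29, adjusted p = 0.0142).

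Of 19 tested cytoplasmic regulators, 11 rose and 4 fell (median 0.40), against 39.8 percent higher and 36.8 percent lower of all tested genes. APC2, the relative of APC known mainly from neurons, stood at 1.15, 0.436 and 0.123 CPM on day 0 and 123, 120 and 116 CPM on day 30. Its log2 fold change of 7.68 ± 0.29 (edgeR adjusted p = 3.67e-09) was larger than that of any tested member, and was 8.70 without day 0 replicate 1. APC2 lay under the filter in every day 0 library, so it entered the test through day 30 alone and had to be higher there. CXXC4, an inhibitor of Dishevelled that was likewise picked after seeing its values, rose from 9.04 ± 2.23 to 220 ± 30.2 CPM (4.61 ± 0.19). CCDC88C, a Dishevelled-binding protein, fell from 62.9 ± 4.00 to 21.9 ± 2.07 CPM (−1.52 ± 0.13).

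Of 15 tested nuclear cofactors of beta-catenin, 6 rose and 5 fell (median −0.03), against 39.8 percent higher and 36.8 percent lower of all tested genes. PYGO1, which links beta-catenin to chromatin, rose from 3.31 ± 1.01 to 47.4 ± 2.47 CPM (3.83 ± 0.20). TLE1, a co-repressor bound by TCF factors, fell from 80.2 ± 4.74 to 36.8 ± 6.54 CPM (−1.11 ± 0.14). Among 7 tested adhesion partners of the catenins, 2 rose and 3 fell. CDH1, the E-cadherin of epithelial and pluripotent cells, stood at 215, 202 and 270 CPM on day 0 and 0.823, 1.36 and 3.21 CPM on day 30 (−7.18 ± 0.30), while N-cadherin, CDH2, did not pass (0.03 ± 0.17, edgeR adjusted p = 0.887). CTNNA2, the neuronal alpha-catenin, rose from 5.54 ± 1.81 to 237 ± 23.7 CPM (5.40 ± 0.21).

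Of 18 target genes of WNT signalling outside the members, only 7 were tested, of which 3 rose, 3 fell and CD44 did not pass. Over all tested genes, 39.8 percent were higher and 36.8 percent lower. ID2, which BMP signals also induce, rose from 5.86, 5.81 and 8.98 CPM to 79.5, 59.8 and 34.7 CPM (3.08 ± 0.30). BMP4 stood at 5.74, 5.23 and 8.74 CPM on day 0 and at 0.206, 3.85 and 2.45 CPM on day 30. It fell (−1.56 ± 0.58, edgeR adjusted p = 0.03), did not pass without day 0 replicate 3 (adjusted p = 0.0978), and was −2.55 without day 30 replicate 2. The feedback inhibitor NKD1 and the receptor TNFRSF19, both named after their values were seen, rose by 0.80 ± 0.26 and 2.82 ± 0.30 on the log2 scale, whereas AXIN2 fell. The cell cycle gene CCND1 and the growth regulator MYC, also named after their values were seen, fell by 0.66 and 0.77 on the log2 scale (edgeR adjusted p = 0.00299 and 0.000140). NKD1 did not pass without day 0 replicate 2 or replicate 3 (adjusted p = 0.0714 and 0.0531). SP5, TBXT, CDX1 and CDX2, targets used as readouts of strong WNT activity, held 0, 3, 1 and 0 counts on day 0 and 1, 1, 0 and 0 on day 30. Some other untested targets held more reads. MIXL1 had 25 counts on day 0 and 18 on day 30, MSX1 4 and 21, MSX2 15 and 6 and GBX2 14 and 8.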

How the data were processed

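The values are expected counts per gene from total RNA libraries (ribosomal RNA depleted, stranded kit, per the labels' protocols), as the authors deposited them: 92.6% of values are whole and the rest fractions. The plan assumed raw counts; values were rounded for the tests. Per the submitters' processing notes, FastQC 0.11.9 and hg38 were used. Aligner, counter, annotation and strand setting: not given in the sources used here. Columns of values not used numbered 0.

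The days were compared in edgeR 4.0.16 under R 4.3.3 (quasi-likelihood, TMM, filterByExpr, 2-sided, Benjamini-Hochberg over 18040 genes, biological coefficient of variation 0.152), after a run on simulated data, and with DESeq2 1.42.0 as an alternative. The standard error is the absolute log2 fold change over the square root of F, and is approximate. TPM used unrounded counts per kilobase of the union of GENCODE 29 exons. Library totals came to 7758817, 7178453 and 8794008 counts (day 0) and 9688839, 12924842 and 5013643 counts (day 30). A group without reads was given a floor of 3 counts, and ratios with 1 to 3 counts a 95% exact interval.

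Members and gene lists were chosen with earlier results of these data known. Named were 10 set members (AXIN2, LEF1, TCF7, TCF7L1, TCF7L2, CTNNB1, WLS, PORCN, LRP5 and LRP6) and, in each role, the 2 passing members with the largest rise and the 2 with the largest fall, the highest member per length on each day and the non-passing member nearest to 0. In each other list, the largest rise and the largest fall were named, with at least 1 CPM in the higher day. The alternatives were total counts only, DESeq2, no filter and a stricter filter on low counts, a replicate block, leaving out each library, and the longest transcript for levels.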

Additional observations from a re-analysis of the deposited data

How the results depend on the processing

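The counts of genes, members and other pathway genes that were higher or lower stayed within 1.5 times the reported value under all 11 alternatives, with 15 to 18 members higher and 18 to 22 lower. With no filter on low counts, 37507 genes were tested and RSPO3, LGR5, DKK1, FZD10, LGR6 and RNF43 passed as well. Scaling by total counts only moved the median of all genes from 0.08 to 0.17. The direction of 4 members that did not pass was not settled: FZD1 was at 0.0781 with total counts only, 0.0636 with DESeq2 and −0.63 to 0.41 with 1 library left out, and with 1 library left out FZD2 ranged from −0.84 to 0.26, RSPO4 from −0.34 to 0.44 and DVL1 from −0.0329 to 0.21. WNT5A, FZD8 and DVL3 lost their call in 1, 4 and 1 alternatives. With the longest transcript as length, LGR4 made up 81.3% of its role on day 0, CTNNB1 65.7% and TCF7L1 45.5% (TCF7L2 45.3%), and on day 30 DKK3 85.4% and APC 22.7%. The replicate numbers were not taken as pairs because the labels do not say what a replicate number shares. Same-numbered libraries did not deviate together (correlations of 0.07, −0.00 and −0.05). The fit with a replicate block gave 15 members higher and 19 lower, 6921 and 6415 genes, and 29 and 34 other pathway genes. It changed the call of CD44 alone among the members and named genes, which fell at −0.69 (adjusted p = 0.00165). At 5013643 to 12924842 counts a library, the members under the filter were too low for the reported test.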
